A study of Sus scrofa with 9 samples.

Results

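The mitochondrial genome of the pig encodes 13 proteins, and 6 of them belong to complexes III, IV and V of the respiratory chain. These are CYTB of complex III, COX1, COX2 and COX3 of complex IV, and ATP6 and ATP8 of complex V. The 6 transcripts were chosen by their gene symbol among the 25149 genes of the expression table, and each symbol matched 1 gene. COX2 in this table is a subunit of cytochrome c oxidase and not the prostaglandin synthase that shares the abbreviation. The genes are listed as ENSSSCG00000018094 (CYTB), ENSSSCG00000018075 (COX1), ENSSSCG00000018078 (COX2), ENSSSCG00000018082 (COX3), ENSSSCG00000018081 (ATP6) and ENSSSCG00000018080 (ATP8).

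Levels were measured by bulk RNA sequencing in 9 hearts of female American Yorkshire pigs aged 4 to 6 months, a model of donation after circulatory death (DCD). All hearts had 15 min of warm ischemia, were stored cold, and were then reanimated for 2 h by normothermic machine perfusion (NMP), in which the isolated heart is perfused warm outside the body. Group 1 (NRP + HOPE 24 h, pigs 27, 28 and 30) had 60 min of normothermic regional perfusion (NRP), a restart of warm blood flow inside the donor, and then 24 h of hypothermic oxygenated perfusion (HOPE) at 8 °C. Group 2 (NRP + SCS 2 h, pigs 24, 25 and 29) had the same NRP and then 2 h of static cold storage (SCS) at 4 °C. Group 3 (No NRP + HOPE 2 h, pigs 31, 33 and 34) had 0 min of NRP and 2 h of HOPE at 8 °C. Each group was 3 pigs, and none of the groups was an unstored or beating-heart control. Storage method, storage time and temperature changed together between Groups 1 and 2, and NRP, storage method and temperature changed together between Groups 2 and 3, so their parts cannot be told apart.

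Complex III passes electrons from ubiquinol to cytochrome c, complex IV passes them on to oxygen, and both pump protons across the inner mitochondrial membrane. Complex V, the ATP synthase, lets the protons flow back and makes ATP. Each complex is built from a few mitochondrially encoded subunits and a larger number of subunits that are encoded in the nucleus and imported. The mitochondrial genes are transcribed as long polycistronic RNAs that are then cut, mostly at the tRNAs between the genes, and heart muscle is one of the tissues richest in these transcripts.

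Values are TPM, a level per gene length that is scaled to the same total of 1000000 transcripts in every heart, so a rise of 1 abundant transcript lowers the TPM of the others. The mitochondrial transcripts are therefore also given as shares, in percent, of the summed TPM of the 13 mitochondrially encoded coding genes. In bulk tissue, fewer cells of a type and less RNA per cell cannot be told apart. The hearts were labelled as cardiomyocytes but were tissue biopsies. Of 11 cardiomyocyte markers, 7 were matched, and their summed level was 18621 to 33656 TPM, against 228 to 542 TPM for 6 endothelial markers, 669 to 1150 TPM for 5 fibroblast markers and 188 to 426 TPM for 4 smooth muscle and pericyte markers, of which MYH11 was listed at 0 in all 9 hearts. Summed levels were 58.6 to 214 TPM for 5 macrophage markers, 71.4 to 425 TPM for 3 erythroid markers, and at most 13.2, 13.4 and 1.97 TPM for 3 neutrophil, 3 lymphocyte and 2 adipocyte markers. A listing at 0 does not by itself show that a gene was not expressed.

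The 6 transcripts held a large part of all measured RNA. Together they took 43.7, 41.8 and 28.9% of TPM in the hearts of Group 1, 37.7, 38.1 and 41.3% in Group 2, and 43.9, 38.0 and 34.2% in Group 3. All 13 mitochondrially encoded coding genes took 49.4% ± 9.71 (SD, n = 3), 50.2% ± 2.18 and 49.6% ± 5.09 of TPM in the 3 groups. Pig 30 of Group 1 was the lowest of the 9 hearts at 38.2%, and pig 27 of the same group was the highest at 55.3%. The means differed by less than 1 percentage point, with exact two-sided permutation p = 1 for Group 1 against Group 2, p = 0.9 for Group 3 against Group 2 and p = 0.9 for Group 1 against Group 3 (3 hearts against 3 cannot give a p under 0.1). These small differences depended on single hearts. Without pig 30, Group 1 was 4.76 points above Group 2 and 5.38 points above Group 3, and without pig 29 it was 0.385 points above Group 2. Group 3 was above Group 2 by 1.78 points without pig 34 and by 0.605 points without pig 29, and Group 1 was above Group 3 by 2.45 points without pig 31. Within the 13, the 6 transcripts of complexes III, IV and V took 75.8 to 79.9%, and the 7 of complex I took the rest.

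The order of the 6 levels was the same in all 9 hearts, apart from COX1 and COX3. Over the 9 hearts the mean was 114300 TPM for ATP6, 79863 TPM for COX1, 73027 TPM for COX3, 62081 TPM for COX2, 32629 TPM for ATP8 and 24418 TPM for CYTB. ATP6 was the most abundant transcript of the whole table in every heart, and COX2 ranked 4 in every heart. COX1 and COX3 shared ranks 2 and 3, ATP8 ranked 5 or 6, and CYTB ranked 6 or 7, places they shared with ND6 of complex I and, in pig 30, with a gene without a symbol. The strand setting of the read counting is not given in the sources used here, so the ND6 level is uncertain. Each neighbour in this order was above the next in 9 of 9 hearts, except COX1 and COX3. On the log2 scale ATP6 was above COX1 by 0.50 ± 0.24 (SD, n = 9), COX3 above COX2 by 0.23 ± 0.06, COX2 above ATP8 by 0.93 ± 0.25 and ATP8 above CYTB by 0.41 ± 0.21. COX1 was above COX3 in 5 of 9 hearts, by 0.14 ± 0.24, a difference within its spread. The order was read from these 9 hearts, so it is given as a description with no test.

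CYTB encodes cytochrome b, the only subunit of complex III made in the mitochondrion, which carries the sites where ubiquinol is oxidised and ubiquinone reduced. Its level was 28077, 28170 and 20097 TPM in pigs 27, 28 and 30 of Group 1, 21041, 22688 and 26067 TPM in pigs 24, 25 and 29 of Group 2, and 25092, 25233 and 23297 TPM in pigs 31, 33 and 34 of Group 3. Group 1 held both the lowest and the highest CYTB values, and all groups overlapped. As a share of the 13 transcripts, CYTB was 5.07, 5.15 and 5.26% in Group 1, 4.33, 4.58 and 4.95% in Group 2, and 4.57, 5.14 and 5.20% in Group 3. On this scale the hearts of Group 1 were close together and all above those of Group 2, by 0.541 percentage points. The exact permutation p was 0.1, the smallest possible, and 0.6 after adjustment over the 18 share tests (6 genes in 3 comparisons).

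COX1 encodes the subunit of complex IV that holds the haem and copper centre where oxygen is reduced. Its level was 85725, 81655 and 67520 TPM in Group 1, 87267, 90356 and 70987 TPM in Group 2, and 84088, 73065 and 78100 TPM in Group 3. Pigs 24 and 25 of Group 2 were the highest and pig 30 the lowest, with overlap between all groups. Its share of the 13 transcripts was 15.5, 14.9 and 17.7% in Group 1, 17.98, 18.3 and 13.5% in Group 2, and 15.3, 14.9 and 17.4% in Group 3. Pig 30 had the lowest COX1 level of the 9 hearts but the highest COX1 share of Group 1, and pig 29 had the lowest share of all.

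COX2 encodes the subunit that takes electrons from cytochrome c. Its level was 75143, 66871 and 45227 TPM in Group 1, 57956, 58563 and 62777 TPM in Group 2, and 73710, 63470 and 55006 TPM in Group 3. The spread was widest in Group 1 (mean 62414 ± 15448 TPM) and narrow in Group 2 (59766 ± 2626 TPM), with Group 3 between them (64062 ± 9366 TPM). The COX2 share was 11.9, 11.8 and 11.9% in Group 2, against 13.6, 12.2 and 11.8% in Group 1 and 13.4, 12.9 and 12.3% in Group 3. The 3 hearts of Group 3 were all above those of Group 2, by 0.977 percentage points (exact permutation p = 0.1, adjusted 0.6).

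COX3 encodes the third core subunit of complex IV, which carries no redox centre. Its level was 89639, 78255 and 52045 TPM in Group 1, 66134, 68204 and 76439 TPM in Group 2, and 89594, 77380 and 59549 TPM in Group 3. The 9 hearts ranked by COX3 in the order they had for COX2, with pigs 27 and 31 highest and pig 30 lowest. Its share was 16.2, 14.3 and 13.6% in Group 1, 13.6, 13.8 and 14.5% in Group 2, and 16.3, 15.8 and 13.3% in Group 3, and all groups overlapped.

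ATP6 encodes the membrane subunit a, which forms the path of the protons through the ATP synthase. Its level was 127777, 125508 and 78389 TPM in Group 1, 110121, 107371 and 134444 TPM in Group 2, and 135175, 112694 and 97225 TPM in Group 3. The highest heart of each group lay between 127777 and 135175 TPM, and pig 30 was again the lowest. ATP6 was 23.1, 22.96 and 20.5% of the 13 transcripts in Group 1, 22.7, 21.7 and 25.5% in Group 2, and 24.6, 22.95 and 21.7% in Group 3.

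ATP8 encodes a small membrane subunit of the stalk of the ATP synthase, and its reading frame overlaps the start of ATP6. Its level was 30656, 37855 and 26206 TPM in Group 1, 34852, 33633 and 42328 TPM in Group 2, and 31165, 28603 and 28364 TPM in Group 3. In TPM, every heart of Group 3 lay below every heart of Group 2, and Group 1 overlapped both. Groups 2 and 3 overlapped when scaled to 1000000 TPM of the genes other than the 13. There pig 31 (69185) lay above pigs 24 (67735) and 25 (66583). The ATP8 share was 5.67, 5.83 and 6.33% in Group 3 against 7.18, 6.80 and 8.03% in Group 2 and 5.54, 6.93 and 6.86% in Group 1. Group 3 was 1.39 percentage points lower than Group 2 (5.94% against 7.34%, exact permutation p = 0.1, adjusted 0.6). Unique reads in exons were counted, and how reads over the bases common to ATP8 and ATP6 were assigned is not given in the sources used here, so the level of either gene carries this uncertainty.

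**Figure D1:**
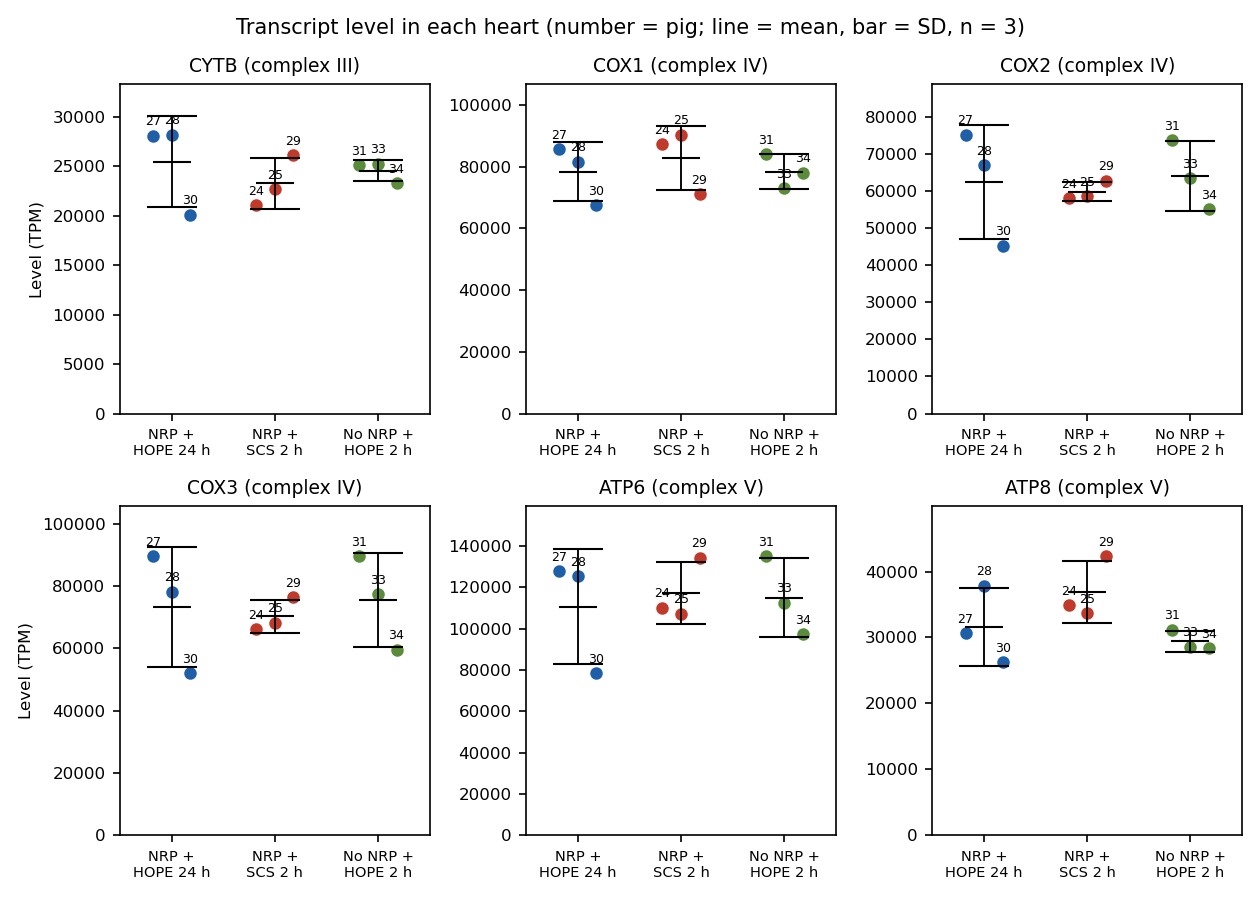
Level of each of the 6 transcripts in TPM (y axis, from 0) in each heart, by group on the x axis, with 1 point per heart numbered by pig, a line at the mean and a bar of 1 SD (n = 3). Pig 30 of NRP + HOPE 24 h is the lowest heart in all 6 panels. In TPM, ATP8 is the only panel in which No NRP + HOPE 2 h (28364 to 31165 TPM) lies wholly below NRP + SCS 2 h (33633 to 42328 TPM). Scaled to the genes other than the mitochondrially encoded coding genes, which is not drawn, ATP8 overlaps between these groups. There pig 31 of No NRP + HOPE 2 h (69185) lies above pigs 24 (67735) and 25 (66583) of NRP + SCS 2 h.

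**Figure D2:**
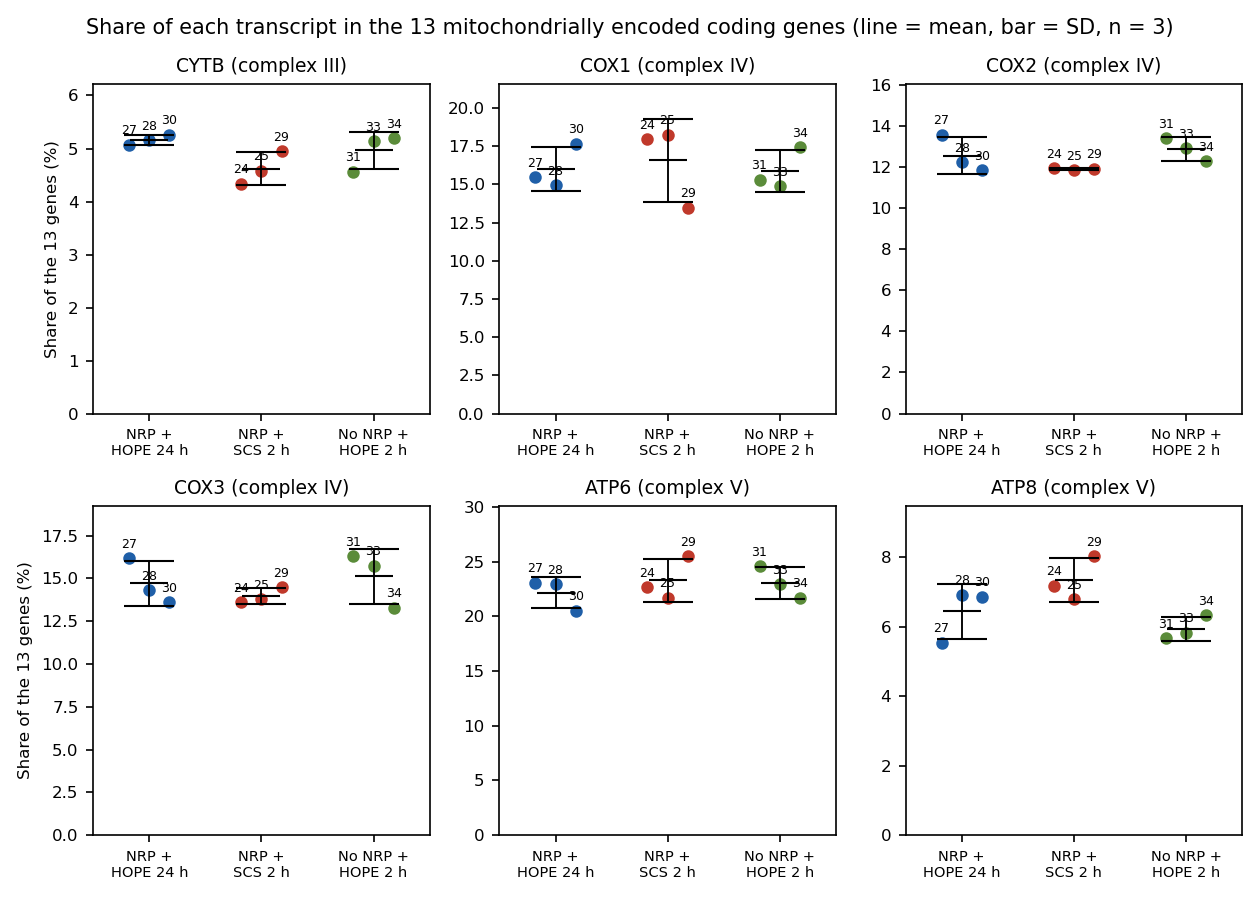
Share of each of the 6 transcripts in the summed TPM of the 13 mitochondrially encoded coding genes, in percent (y axis), by group on the x axis, with 1 point per heart, a line at the mean and a bar of 1 SD (n = 3). The group NRP + SCS 2 h lies wholly below NRP + HOPE 24 h for CYTB, wholly below No NRP + HOPE 2 h for COX2, and wholly above the latter for ATP8.

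The effect of 24 h of HOPE was examined by comparing Group 1 with Group 2. None of the 6 transcripts passed the threshold. The fitted log2 fold change on log2(TPM + 1) was 0.12 ± 0.18 (SE) for CYTB, -0.08 ± 0.16 for COX1, 0.03 ± 0.19 for COX2, 0.03 ± 0.21 for COX3, -0.11 ± 0.20 for ATP6 and -0.24 ± 0.18 for ATP8. A gene was called in limma's moderated test when its adjusted p was under 0.05 and its level changed by more than 1 on the log2 scale, and 0 of 6 were called, against 0.0255% of the 11782 genes tested. At an unadjusted p under 0.05 the count was also 0 of 6, against 4.97% of all genes, and 0 of 6 had groups that did not overlap, against 9.82%. Adjusted p-values were 0.993 to 0.995. The 95% intervals of the 6 changes reached from -0.61 to 0.50 on the log2 scale, that is from 0.654-fold to 1.41-fold, so smaller changes in either direction could not be seen with 3 hearts a group. The median change of the 6 was -0.03, beside -0.12 over all genes tested. Without pig 30, the values for CYTB, COX1, COX2, COX3 and ATP6 were 0.28, 0.02, 0.25, 0.26 and 0.12, and ATP8 was -0.11, with adjusted p from 0.484 to 0.951. With another heart left out, the lowest values of these 5 were 0.036, -0.19, -0.12, -0.14 and -0.23, and that of ATP8 was -0.37.

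The contribution of NRP was examined by comparing Group 3 with Group 2, which is also the control of the first comparison. Again 0 of 6 transcripts were called by limma, against 0.0509% of genes, and 0 of 6 had an unadjusted p under 0.05, against 7.22%. The log2 fold change was 0.08 ± 0.18 (SE) for CYTB, -0.07 ± 0.16 for COX1, 0.09 ± 0.19 for COX2, 0.09 ± 0.21 for COX3 and -0.03 ± 0.20 for ATP6. ATP8 had the lowest value, -0.32 ± 0.18 (limma adjusted p = 0.7499), with a 95% interval from -0.70 to 0.05. It was the 1 gene of the 6 whose groups did not overlap in TPM, where 14.7% of all genes did not overlap and 10.3% did so in the downward direction. When scaled to 1000000 TPM of the genes other than the 13, ATP8 overlapped. It was then 51392.5 to 69185.4 in Group 3 and 66583.3 to 89485.3 in Group 2. The 95% intervals of the 6 reached from -0.70 to 0.54, that is from 0.615-fold to 1.45-fold, and their median change was 0.02 beside -0.07 over all genes. Without pig 31, COX2 and COX3 turned to -0.016 and -0.047, and ATP6 turned to 0.081 without pig 34 and to 0.068 without pig 29. Of the 9 marker lists, 3 had summed TPM that did not overlap between these groups. They were 222 to 373 TPM in Group 3 and 71.4 to 133 TPM in Group 2 for erythroid markers, 1020 to 1150 and 669 to 982 TPM for fibroblast markers, and 0 to 0.343 and 2.02 to 13.2 TPM for neutrophil markers, of which CSF3R was listed at 0 in all hearts. Scaled to 1000000 TPM of the genes other than the 13, the fibroblast markers overlapped, at 1876 to 2554 in Group 3 and 1301 to 2076 in Group 2, while the erythroid and neutrophil markers remained apart. The part of these differences in the ATP8 values was not tested.

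Groups 1 and 3 shared storage by HOPE and differed in NRP and in storage time. The log2 fold changes of Group 1 over Group 3 lay between -0.08 (ATP6) and 0.09 (ATP8), with 95% intervals that reached from -0.51 to 0.47. None of the 6 was called by limma, against 0.0509% of genes, 0 of 6 had an unadjusted p under 0.05, against 6.01%, and 0 of 6 had groups apart, against 7.48%. Without pig 30 the 6 values were all positive, from 0.10 for COX1 to 0.21 for ATP8, with adjusted p from 0.637 to 0.831. Each was negative with some other heart left out. The lowest values were -0.046 for CYTB, -0.076 for COX1, -0.21 for COX2, -0.22 for COX3, -0.20 for ATP6 and -0.050 for ATP8. Summed smooth muscle and pericyte markers (188 to 308 TPM in Group 1, 358 to 426 TPM in Group 3) and neutrophil markers (0.357 to 3.89 and 0 to 0.343 TPM) did not overlap between these groups. Scaled to 1000000 TPM of the genes other than the 13, the smooth muscle and pericyte markers overlapped, at 421 to 680 and 649 to 889, the neutrophil markers remained apart, and the macrophage markers separated the groups, at 131 to 219 in Group 1 and 239 to 388 in Group 3. The part of these markers in any value of Group 1 over Group 3 was not tested.

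**Figure D3:**
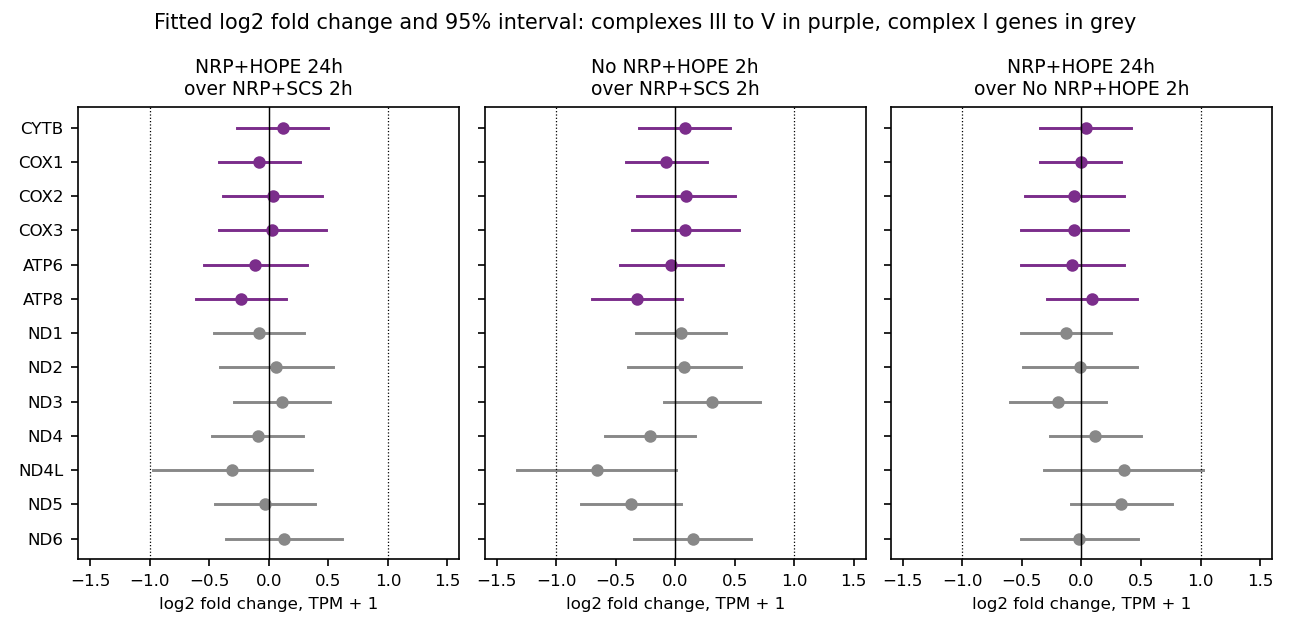
Fitted log2 fold change on log2(TPM + 1) (x axis) with its 95% interval for the 13 mitochondrially encoded genes (y axis) in the 3 comparisons, the 6 transcripts of complexes III, IV and V in purple and the 7 of complex I in grey, with dotted lines at the threshold of 1 in either direction. All 6 purple intervals cross 0 in each panel, and the ATP8 interval in the middle panel, Group 3 over Group 2, ends at 0.05.

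Ratios between the transcripts, which do not depend on the TPM total, set hearts of the same group apart. COX3 over COX2 was the steadiest, at 1.08 to 1.22 in the 9 hearts (coefficient of variation 3.82%), with group means of 1.17, 1.17 and 1.17. COX3 over COX1 was 1.05, 0.958 and 0.771 in Group 1, 0.758, 0.755 and 1.08 in Group 2, and 1.07, 1.06 and 0.762 in Group 3. Pigs 30, 24, 25 and 34 lay between 0.755 and 0.771 and the other 5 hearts between 0.958 and 1.08, with no heart between, and each group held hearts of both kinds. The same 4 hearts had the highest ratio of ND4L, a complex I transcript, to COX1, at 0.105 to 0.126 against 0.0508 to 0.0927 in the other 5. ND4L overlaps ND4, and how reads over their common bases were assigned is likewise not given, so the ND4L level is uncertain.

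ATP8 over ATP6 was 0.316, 0.313 and 0.315 in the hearts of Group 2, a coefficient of variation of 0.515%. The ratio was 0.240, 0.302 and 0.334 in Group 1 and 0.231, 0.254 and 0.292 in Group 3. All 3 hearts of Group 3 were thus below Group 2, while pigs 27 and 28 of Group 1 were below and pig 30 was above it. ATP6 over COX1 ranged from 1.16 in pig 30 to 1.89 in pig 29.

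**Figure D4:**
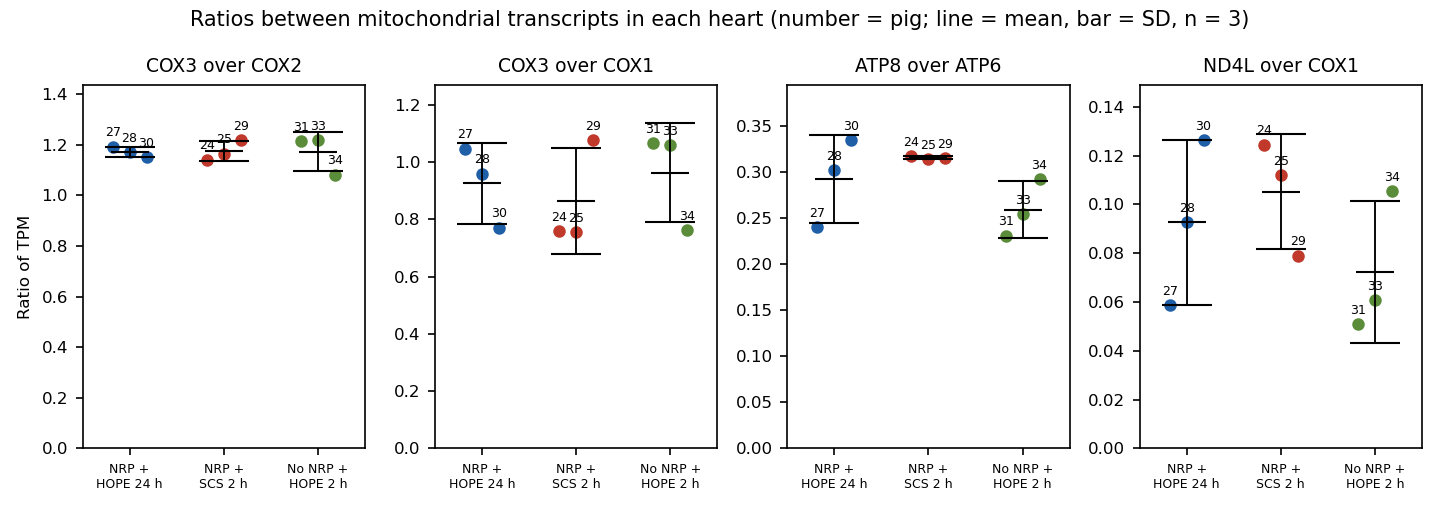
Ratio of TPM between pairs of mitochondrial transcripts (y axis, from 0) in each heart, by group on the x axis, with 1 point per heart numbered by pig, a line at the mean and a bar of 1 SD (n = 3). COX3 over COX2 stays within 1.08 to 1.22, COX3 over COX1 splits the hearts of every group into values of at most 0.771 and of at least 0.958, and ATP8 over ATP6 is 0.313 to 0.316 in all hearts of NRP + SCS 2 h.

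Across the 9 hearts the log2 levels of COX2, COX3 and ATP6 went together. Pearson's r was 0.98 for COX2 with COX3, 0.93 for COX3 with ATP6 and 0.92 for COX2 with ATP6, and CYTB had r of 0.80 to 0.84 with these 3. COX1 stood apart, with r of 0.16 with CYTB, 0.50 with COX2, 0.41 with COX3 and 0.39 with ATP6. ATP8 had r of 0.67 with ATP6, the neighbour that it overlaps, and 0.22 to 0.42 with the other 4. On the log2 shares, which sum to a fixed total and so push each other apart, COX2 and COX3 kept r = 0.90, while COX1 had r = 0.84 with ND4 and -0.82 with ATP6, and COX2 had r = -0.88 with ATP8. These coefficients describe 9 hearts of 3 groups that share a fixed TPM total, and they carry no test.

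The levels of genes outside the 13 were set beside the 6 transcripts. Because the 6 took 28.9 to 43.9% of a fixed TPM total, negative correlations with other genes are in part built into the scale. Of the 5224 tested genes with a symbol, outside the 13, and with a mean of at least 5 TPM, 95.2% had a negative correlation over the 9 hearts with the mean log2(TPM + 1) of the 6, with a median r of -0.55. With every value divided by the summed TPM of the genes other than the 13, a scaling chosen for this relation after seeing the data, the median was -0.24 and 73.9% were negative. On the TPM scale the 5 highest coefficients belonged to SMDT1 (0.75), a regulatory subunit of the mitochondrial calcium uniporter, RF00026 (0.70) and RF00092 (0.53), which are short RNA families, TYW3 (0.59), which acts in tRNA modification, and FRA10AC1 (0.52). SMDT1 was a low transcript here, at 0.134 to 13.9 TPM. The 5 lowest belonged to WDR83 (-0.97), MMADHC (-0.97), which acts in vitamin B12 metabolism, CLPTM1 (-0.97), ZYX (-0.96), which encodes the focal adhesion protein zyxin, and FTSJ1 (-0.96), a tRNA methyltransferase. The names depended on the scale. After division by the other genes, the 5 highest were FRA10AC1 (0.79), SMDT1 (0.78), TEN1 (0.77), RF00026 (0.76) and TRMT10A (0.75), and the 5 lowest were CLPTM1 (-0.94), ZYX (-0.93), ZNF277 (-0.92), LHFPL6 (-0.92) and GGA2 (-0.92).

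The nuclear partners of the 6 transcripts were followed in 6 lists with 113 written genes, of which 64 were matched by symbol and 59 were tested. By limma, 0 of the 59 were called in any of the 3 comparisons, where 0.0255%, 0.0509% and 0.0509% of all genes were called, so the count does not set these genes apart from the rest. Mean mitochondrial TPM over mean nuclear TPM of the matched subunits was 92.2 ± 27.6 (SD, n = 9) for complex III, 105 ± 27.4 for complex IV and 133 ± 40.0 for complex V. Pig 30 had the lowest ratio for each complex, at 47.8, 57.8 and 65.0, and pig 28 the highest, at 138, 146 and 186. Both hearts belonged to Group 1, and the groups overlapped for all 3 complexes.

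Of 9 nuclear complex III subunits, 6 were tested, and their median log2 fold change was 0.06 for Group 1 over Group 2, -0.01 for Group 3 over Group 2 and 0.04 for Group 1 over Group 3. An unadjusted p under 0.05 was reached by 1, 0 and 1 of the 6, beside 4.97, 7.22 and 6.01% of all genes, and the gene was UQCRC2 both times. UQCRC2, a core subunit, was at 60.9, 65.0 and 116 TPM in Group 1, 26.9, 81.6 and 28.7 TPM in Group 2, and 26.2, 23.2 and 26.1 TPM in Group 3. The hearts of Group 1 were all above those of Group 3, and pig 25 of Group 2 lay among the Group 1 values. The log2 fold change was 0.94 ± 0.40 (SE) over Group 2 (limma adjusted p = 0.954) and 1.58 ± 0.40 over Group 3 (adjusted p = 0.2999). UQCRQ, a small subunit bound near cytochrome b, had values of 0.35 and 0.32 over Group 2 in Groups 1 and 3 (limma adjusted p = 0.993 and 0.880). UQCRFS1, the Rieske iron-sulfur subunit, was at 70.9 ± 31.9, 61.0 ± 12.3 and 52.2 ± 6.54 TPM (SD, n = 3) in Groups 1, 2 and 3, a log2 fold change of 0.36 ± 0.32 (SE) for Group 1 over Group 3 (limma adjusted p = 0.956). CYC1, the cytochrome c1 gene, was not matched by symbol.

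Of 16 nuclear complex IV subunits, 9 were tested, with 0 at an unadjusted p under 0.05 in each comparison and medians of -0.14, 0.00 and -0.10. COX4I1, which encodes the largest nuclear subunit, was at 927 ± 324, 1052 ± 125 and 964 ± 172 TPM (SD, n = 3) in Groups 1, 2 and 3, and COX5A, another subunit of the matrix side, at 520 ± 200, 402 ± 93.2 and 463 ± 69.1 TPM. COX8H, which encodes a heart and muscle form of subunit 8, was at 694 ± 180, 833 ± 214 and 986 ± 167 TPM, and COX8A, the form found in most tissues, at 103 ± 46.6, 106 ± 17.5 and 141 ± 16.0 TPM. Of 18 nuclear complex V genes, 7 were tested, likewise with 0 at an unadjusted p under 0.05, and medians of -0.03, -0.02 and -0.17. ATP5F1A, the alpha subunit of the catalytic head, was at 707 ± 191, 710 ± 106 and 651 ± 101 TPM. ATP5F1E, the epsilon subunit of the central stalk, was at 218 ± 51.7, 266 ± 48.5 and 261 ± 30.9 TPM, and ATP5PO, in the peripheral stalk, at 673 ± 197, 571 ± 87.0 and 545 ± 87.5 TPM. ATP5IF1, the inhibitor of ATP hydrolysis, was at 592 ± 200, 597 ± 71.9 and 674 ± 115 TPM.

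Assembly factors put these subunits together, and 11 of 33 were tested, with 0 at an unadjusted p under 0.05 and medians of 0.03, -0.07 and -0.01. COA4, a factor for complex IV, had a log2 fold change of 0.95 ± 0.51 (SE) for Group 3 over Group 2 (limma adjusted p = 0.746) and 0.68 ± 0.51 for Group 1 over Group 2 (adjusted p = 0.993). COX15, which makes haem A, and SCO1, which brings copper to COX2, had values of 0.52 and -0.34 for Group 3 over Group 2 (limma adjusted p = 0.825 and 0.887). TTC19, a complex III factor, had -0.30 for Group 1 over Group 2 (adjusted p = 0.993).

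Factors that transcribe, process and stabilise mitochondrial RNA were 25, of which 18 were tested. For Group 3 over Group 2, 14 of 18 values were negative, beside 57.8% of all genes, and the median was -0.23 beside -0.07. At an unadjusted p under 0.05, 3 of 18 were lower, beside 4.65% of all genes in that direction, and none passed the adjusted threshold in limma. The erythroid and neutrophil markers, and on the TPM scale alone the fibroblast markers, separated the same groups, and their part in these values was not tested. For Group 1 over Group 2, 12 of 18 were negative, beside 64.1% of all genes, with a median of -0.14 beside -0.12 and 0 at an unadjusted p under 0.05. For Group 1 over Group 3, the median was 0.03 beside -0.03, and 2 of 18 were higher at an unadjusted p under 0.05, beside 6.01% of all genes in either direction. ELAC2, which cuts the 3′ ends of mitochondrial tRNAs, was at 17.5, 8.77 and 6.94 TPM in Group 2, 2.65, 3.46 and 3.71 TPM in Group 3, and 3.44, 4.60 and 10.7 TPM in Group 1. Group 3 lay wholly below Group 2, with a log2 fold change of -1.41 ± 0.41 (SE, limma adjusted p = 0.414). TFB2M, a transcription initiation factor, was at 11.4, 5.52 and 7.01 TPM in Group 2, 5.34, 0.400 and 3.47 TPM in Group 3, and 4.48, 10.8 and 6.79 TPM in Group 1. Its log2 fold change was -1.34 ± 0.50 (SE) for Group 3 over Group 2 (limma adjusted p = 0.583) and 1.22 ± 0.50 for Group 1 over Group 3 (adjusted p = 0.795).

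LRPPRC, which binds and stabilises mitochondrial mRNA, was at 23.3, 20.6 and 21.4 TPM in Group 2, 10.5, 12.6 and 15.4 TPM in Group 3, and 13.98, 20.9 and 25.5 TPM in Group 1. All hearts of Group 3 were below those of Group 2 (log2 fold change -0.73 ± 0.30, limma adjusted p = 0.627). In the same comparison the transcripts of complexes III, IV and V had values of -0.32 to 0.09. Those of complex I ran from -0.66 (ND4L) to 0.31 (ND3). FASTKD1, an RNA-binding protein of mitochondria, had 1.25 ± 0.35 for Group 1 over Group 3 (limma adjusted p = 0.402). The poly(A) polymerase gene MTPAP was at 9.88 ± 2.38, 10.8 ± 1.15 and 9.46 ± 1.54 TPM, and FASTKD2 at 5.18 ± 1.56, 7.55 ± 1.52 and 5.67 ± 0.869 TPM. SLIRP, the partner of LRPPRC, was listed at 0 in all hearts, which does not by itself show that it was not expressed. TFAM, POLRMT and TACO1 were not matched by symbol.

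Of 12 genes for mitochondrial DNA maintenance and biogenesis, 8 were tested, and 7 of 8 had negative values in Groups 1 and 3 over Group 2, beside 64.1% and 57.8% of all genes, with medians of -0.20 and -0.26 beside -0.12 and -0.07 over all genes. These counts share the hearts of Group 2. Erythroid and neutrophil markers, and fibroblast markers in TPM, also separated Groups 3 and 2, and their part in these values was not tested. Over Group 3, Group 1 had a median of 0.01 beside -0.03, and 0 of the 8 had an unadjusted p under 0.05 in any comparison. POLG, the mitochondrial DNA polymerase, was at 14.6 ± 2.84, 20.2 ± 2.63 and 16.3 ± 5.10 TPM in Groups 1, 2 and 3. PPRC1, a coactivator of mitochondrial biogenesis, had -0.39 and -0.53 over Group 2 in Groups 1 and 3 (limma adjusted p = 0.993 and 0.7499). The helicase gene TWNK was at 7.96 ± 1.35, 9.07 ± 0.704 and 7.0 ± 0.870 TPM, and the exonuclease gene MGME1 was at 1.29 ± 0.771, 1.48 ± 1.29 and 1.89 ± 0.404 TPM. PPARGC1A was listed at 0 in all hearts, which does not by itself show that it was not expressed.

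**Figure D5:**
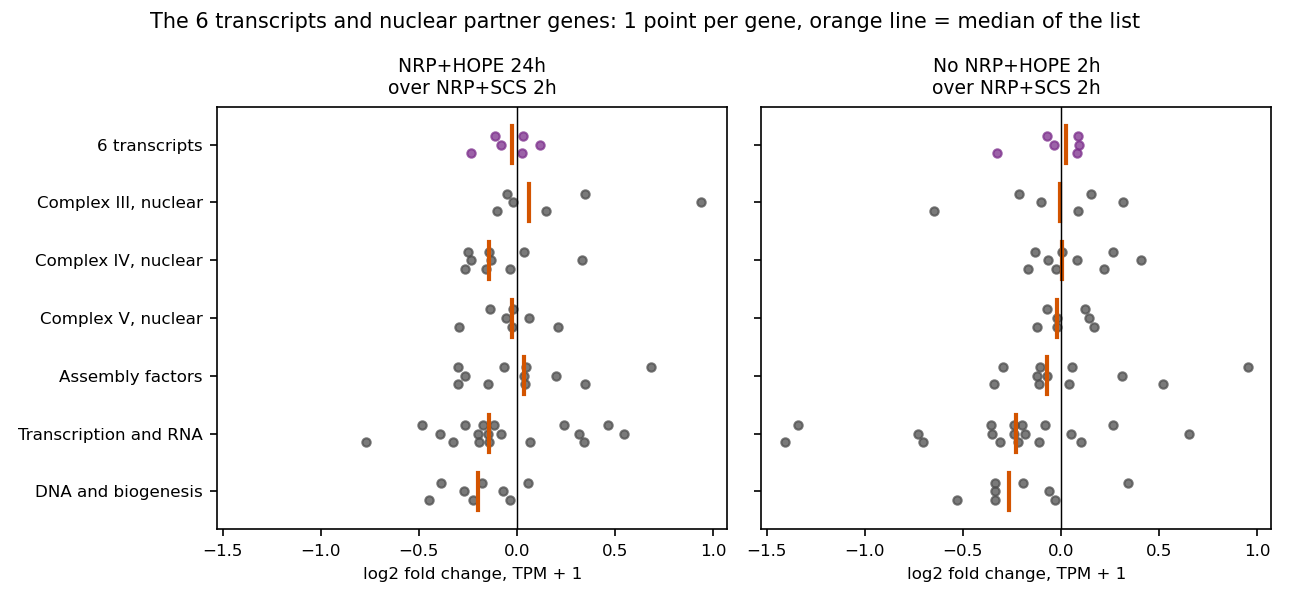
Fitted log2 fold change on log2(TPM + 1) (x axis) for the 6 mitochondrial transcripts (purple) and the 59 tested nuclear genes in 6 lists (grey, y axis), 1 point per gene, with the list's median as an orange line, for Group 1 (left) and Group 3 (right), each over Group 2. The 6 transcripts stay between -0.32 and 0.12, and the lowest points are ELAC2 (-1.41) and TFB2M (-1.34) in the right panel.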

How the data were processed

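Apex biopsies of 9 porcine hearts (3 groups of 3 pigs) were taken after NMP. Per the labels and methods, polyadenylated RNA was captured on oligo(dT) beads and unique exon reads were counted by the authors, and the submitters' processing notes name bcl2fastq 2.17, Trimmomatic 0.36, STAR 2.5.2b, featureCounts of Subread 1.5.2 and DESeq2. The genome build, gene lengths and strand setting are not given in the sources used here. The authors deposited TPM, which keep no read depth, so counting errors are not given and the spread between 3 hearts shows the precision. Each column totals 1000000 TPM, 12006 of 25149 genes had no symbol, 754 symbols were added from a names table, and 9 columns not tied to a sample were left out.

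TPM are not counts, so limma 3.58.1 (R 4.3.3) was fitted to log2(TPM + 1) of the 11782 genes that reached 1 TPM in 3 or more hearts, with all 9 hearts, eBayes with trend and Benjamini-Hochberg adjustment. The script was tested on simulated data. Shares were compared with exact two-sided permutation tests in scipy 1.17.1. The transcripts, the gene lists written from general knowledge, and the tests were chosen with earlier results of these data known. Named genes were the 6 transcripts, chosen regulators and subunits, the 2 genes with the smallest p in each list and comparison, and the 5 with the highest and lowest correlations. Alternatives were another pseudocount (0.1 TPM), other filters, 2 scalings, the 6 compared hearts alone, array weights (statmod 1.5.0), other sums for the shares, and leaving out each heart.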

Additional observations from a re-analysis of the deposited data

How the results depend on the processing

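None of the 18 log2 fold changes of the 6 transcripts (3 comparisons) passed the threshold under any alternative, and the lowest adjusted p was 0.280 (ATP8, Group 3 over Group 2, array weights). Of 126 alternatives other than leaving out a heart, 116 kept the direction. Median-of-ratios scaling moved the median of all genes for Group 1 over Group 2 from -0.12 to 0.00 and turned COX1 to 0.067 and ATP6 to 0.035. Under the same scaling COX1 turned to 0.028 and ATP6 to 0.068 for Group 3 over Group 2, and COX1 to 0.039 for Group 1 over Group 3. Array weights turned ATP6 to 0.066 for Group 1 over Group 2, and COX1, COX2, COX3 and ATP6 to 0.10, 0.057, 0.031 and 0.091 for Group 1 over Group 3. The cause was not tested.

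Leaving out 1 heart at a time turned 23 of 108 values, none of them past the threshold, most often when pig 30 or pig 31 was left out. For Group 1 over Group 2 the ranges were 0.036 to 0.28 for CYTB, -0.19 to 0.022 for COX1, -0.12 to 0.25 for COX2, -0.14 to 0.26 for COX3, -0.23 to 0.12 for ATP6 and -0.37 to -0.11 for ATP8. For Group 3 over Group 2 they were 0.012 to 0.17 for CYTB, -0.18 to -0.0077 for COX1, -0.016 to 0.20 for COX2, -0.047 to 0.25 for COX3, -0.16 to 0.081 for ATP6 and -0.39 to -0.22 for ATP8. For Group 1 over Group 3 they were -0.046 to 0.20 for CYTB, -0.076 to 0.096 for COX1, -0.21 to 0.16 for COX2, -0.22 to 0.17 for COX3, -0.20 to 0.15 for ATP6 and -0.050 to 0.21 for ATP8.

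The differences in share kept their direction in 30 of 30 sums without ND6 or without the overlapping genes, and in 94 of 108 with 1 heart left out. In percentage points, those that turned ranged from -2.08 to 0.311 (COX1, Group 1 over Group 2), -2.25 to 0.147 (COX1, Group 3 over Group 2) and -1.02 to 0.892 (ATP6, Group 3 over Group 2). For Group 1 over Group 3 they ranged from -0.00656 to 0.310 for CYTB, -0.656 to 0.943 for COX1, -0.835 to 0.0340 for COX2 and -1.32 to 0.188 for COX3. The percent of TPM in the 13 genes ranged from -3.81 to 4.76, -3.29 to 1.78 and -3.19 to 5.38 points in the 3 comparisons.

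The number of all genes called was 3 for Group 1 over Group 2. It was 0 with a pseudocount of 0.1 TPM, 1 without a filter, 6 with a mean of at least 5 TPM, 13 with only the 6 hearts compared, 60 with array weights and 0 to 2 with 1 heart left out. For Group 3 over Group 2 it was 6, and 1 without a filter, 19 with median-of-ratios scaling, 18 with nuclear scaling, 3 with only the 6 hearts compared, 94 with array weights and 1 to 13 with 1 heart left out. For Group 1 over Group 3 it was 6, and 3 with the smaller pseudocount, 3 with median-of-ratios scaling, 2 with nuclear scaling, 14 with array weights and 0 to 16 with 1 heart left out. None of the tested nuclear partner genes was called under these alternatives. No paired analysis was possible because no pig was shared between groups and the pig numbers do not match across them.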
